A study of Mus musculus with 8 samples.

Results

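The mitochondrially encoded genes are the genes carried by the mitochondrial DNA itself, and they were taken as every row of the deposited table whose gene name starts with mt-. These were 33 of 25343 genes, of which 13 encode proteins, 2 encode ribosomal RNAs and 18 encode transfer RNAs. The mitochondrial tRNA genes mt-Tk, mt-Th, mt-Ts2 and mt-Tl2 were not analysed here. Expression was measured by RNA sequencing of hair cells, which turn sound vibration into nerve signals, sorted from the mouse cochlea by an Atoh1-GFP reporter. One group was knocked out for Ndp, which encodes the secreted protein norrin, and the other was wild type, with 4 libraries each. All mice were of a mixed C57BL/6 and 129 background and of postnatal day 4 to 6, and each library came from 12 to 20 pooled sensory epithelia. The allele of the knockout, the sex of the pups and the relation of the pools to litters are not given in the sources used here, so a p-value here reflects how far the 4 libraries of a group scatter, which could be technical scatter. Replicate numbers are names in accession order and pair no libraries.

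Mitochondria make most of the ATP of a cell through the respiratory chain, whose complexes I, III and IV pump protons, and through ATP synthase, complex V. Most subunits are encoded in the nucleus, and a small core is encoded by the circular mitochondrial genome. Both strands of that circle are transcribed into long precursors, from which tRNAs are cut out, so that neighbouring genes start from the same precursor and their mature levels differ through processing and decay. Most messengers and, with short tails, ribosomal RNAs are adenylated, while mature tRNAs carry no long tail. In humans, mutations of the small ribosomal RNA gene of mitochondria and of certain mitochondrial tRNA genes are known causes of hearing loss. The cDNA kit used here, SMART-Seq v4, starts cDNA at adenine stretches, and the library kit does not mark the strand.

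The mitochondrial genome leaves almost no space between genes, and its sequence sets which rows of the table can be told apart. The sequences below are from the GRCm38 (mm10) genome and the GENCODE M21 annotation, whose coordinates and lengths matched those of the table for all 33 genes. The first line is shown because mt-Atp8 and mt-Atp6 share 43 bases on the same strand (chrMT:7927-7969), and a read of those bases belongs to both. The second shows the 14 bases at which mt-Nd5 and mt-Nd6 meet on opposite strands (chrMT:13552-13565). Capitals mark the shared bases, and both lines read along the plus strand.
mt-Atp8 with mt-Atp6: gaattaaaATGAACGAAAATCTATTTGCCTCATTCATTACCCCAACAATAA
mt-Nd5 with mt-Nd6: atactcaaTTAATCTCGAGTAA

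Of the 13 protein genes, 12 lie on the plus strand and mt-Nd6 on the minus strand. Base composition differs accordingly. G made up 28.1% of mt-Nd6 and 5.88% to 16.1% of each plus-strand protein gene, and C made up 5.97% of mt-Nd6 and 22.1% to 30.0% of the others. In 3 genes, mt-Co3, mt-Nd4 and mt-Cytb, the annotated gene ends on a single T of a stop codon, which the tail of adenines completes. The last bases of mt-Cytb are shown beside those of mt-Co1, which has a full stop codon, with capitals marking the bases of the stop.
mt-Cytb: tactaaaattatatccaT
mt-Co1: tatgtaaaagtaaaaTAA

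Several nuclear genes copy mitochondrial sequence, because pieces of mitochondrial DNA have been inserted into chromosomes during evolution. Alignment of the mitochondrial transcripts to all annotated transcripts found a run of such copies on chromosome 1, minus strand. Gm10925 (chr1:24613974-24614651) was identical to bases 1 to 678 of mt-Atp6, Gm28437 (chr1:24613189-24613971) to bases 1 to 783 of mt-Co3 and Gm28661 (chr1:24614885-24615565) to bases 1 to 681 of mt-Co2. Gm29216 (chr1:24615706-24616197) matched bases 1063 to 1545 of mt-Co1 with 1 mismatch, A1066T, counted from 1 at the first base of the mitochondrial gene with its base given first. Gm28438 (chr1:24612775-24613119) matched mt-Nd3 with 1 mismatch, T3C. The first 60 bases of mt-Atp6 and Gm10925 are shown to make plain that no read of them can be placed.
mt-Atp6: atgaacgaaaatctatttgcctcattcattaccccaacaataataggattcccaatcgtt
Gm10925: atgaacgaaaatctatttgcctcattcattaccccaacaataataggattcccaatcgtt
The next lines start at base 1063 of mt-Co1 and show it beside Gm29216 and beside Gm13340, an older full-length copy on chromosome 2 (chr2:22588103-22589647, minus strand) with 97.6% identity and 37 mismatches. Capitals mark the bases that differ, A1066T in Gm29216 and T1072C in Gm13340.
mt-Co1: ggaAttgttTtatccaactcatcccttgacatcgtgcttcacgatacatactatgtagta
Gm29216: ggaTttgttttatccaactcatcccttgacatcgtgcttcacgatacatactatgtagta
Gm13340: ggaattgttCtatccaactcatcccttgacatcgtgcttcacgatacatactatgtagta

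The libraries held 35836310 to 44893293 reads in the knockout and 35077950 to 48329827 in wild type, and wild-type replicate 4 held the fewest. Ndp, the targeted gene, had 10.5 to 66.8 normalized counts in knockout libraries and 90.4 to 206 in wild-type libraries. The groups did not overlap, as held for 1.58% of all genes tested in this direction. The log2 difference of Ndp, knockout minus wild type, was -2.20 ± 0.56 (SE), and it was not called (adjusted p = 0.895, limma over all genes tested). A normalized count is a gene's reads divided by 1 factor per library. Of the hair cell markers, Calb1, a calcium-binding protein gene, had 191687 ± 13595 normalized counts in the knockout and 183686 ± 17716 in wild type, and Myo6, a myosin gene, had 76918 ± 3215 in the knockout and 78471 ± 19906 in wild type (SD, n = 4 each). Genes of supporting cells were also abundant, and Tectb, of the tectorial membrane, had 179660 ± 27911 normalized counts in the knockout and 214099 ± 73356 in wild type.

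Mitochondrially encoded genes took 1.66% ± 0.124 of all reads in knockout hair cells and 2.08% ± 1.05 in wild-type hair cells (SD, n = 4 each). In the knockout, replicates 1 to 4 stood at 1.64%, 1.63%, 1.53% and 1.83%. The wild-type replicates 1 to 4 stood at 2.31%, 1.15%, 1.41% and 3.47%. The knockout values all lay inside the wild-type range, with replicates 1 and 4 of wild type above them and replicates 2 and 3 below. The highest library was 1.19 times the lowest in the knockout and 3.02 times the lowest in wild type. The difference of the means, -0.428 percentage points, was 0.0346 without wild-type replicate 4. In bulk RNA, fewer mitochondria-rich cells and less mitochondrial RNA per cell cannot be told apart.

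The classes of transcript ranked the wild-type libraries alike. Protein genes took 1.49% ± 0.107 of reads in the knockout and 1.85% ± 0.929 in wild type. The 2 rRNA genes took 0.166% ± 0.0177 in the knockout and 0.229% ± 0.117 in wild type, and the 18 tRNA genes took 0.00375% ± 0.000491 in the knockout and 0.00525% ± 0.00318 in wild type (SD, n = 4 each). All 3 classes were highest in wild-type replicate 4 and lowest in wild-type replicate 2. Within the mitochondrial reads, rRNA made up 9.98% ± 0.470 in the knockout and 10.9% ± 1.00 in wild type, and tRNA made up 0.226% ± 0.0147 in the knockout and 0.242% ± 0.0393 in wild type (SD, n = 4 each).

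**Figure D1:**
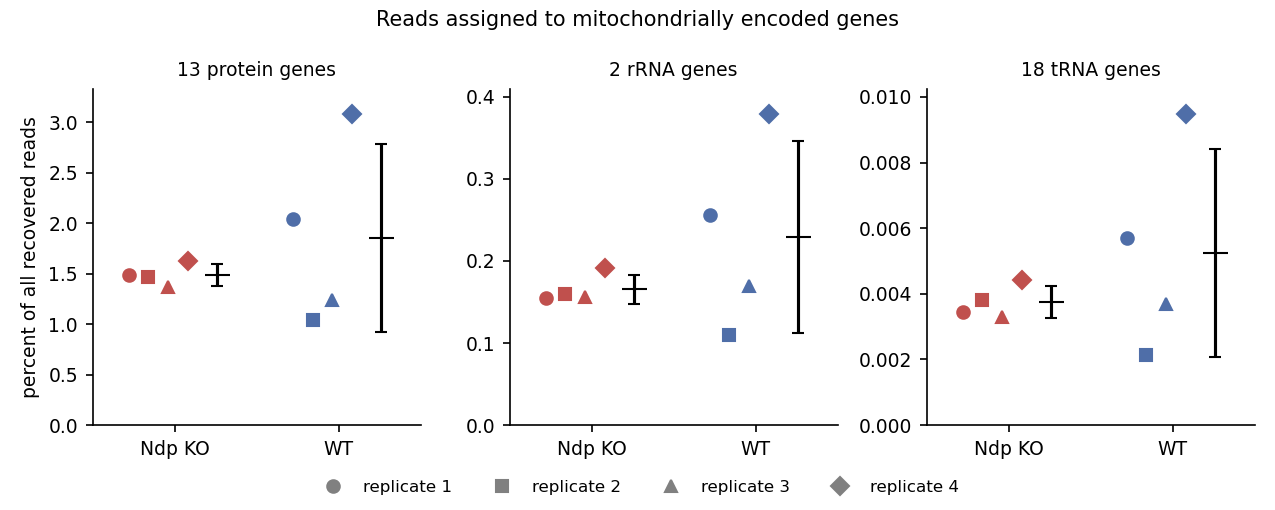
Percent of all recovered reads assigned to the 13 protein genes, the 2 rRNA genes and the 18 tRNA genes in each library of the Ndp knockout (left) and wild type (right). Each symbol is 1 library, its shape gives the replicate, and the bar gives the mean and SD of 4 libraries. The knockout libraries lie close together inside the wild-type range, and wild-type replicate 4 is highest in each class.

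Complex I, which takes electrons from NADH, has 7 mitochondrially encoded subunits. The gene of the membrane-arm subunit mt-Nd1 had 71629.6, 75471, 76095 and 80297 normalized counts in knockout replicates 1 to 4. In wild-type replicates 1 to 4 it had 102371, 52015, 58599 and 170634. All 4 knockout values fell between the 2 lower and the 2 upper wild-type values, and the log2 difference, knockout minus wild type, was -0.17 ± 0.32 (SE; adjusted p = 0.988, limma over all genes tested). For mt-Nd5, which encodes a proton-pumping subunit, the knockout libraries held 35901, 34564, 29517 and 38563 normalized counts. Its wild-type libraries held 49864, 28117, 26516 and 65002, and mt-Nd5 was the 1 protein gene lowest in wild-type replicate 3 and not in replicate 2. The log2 difference of mt-Nd5 was -0.19 ± 0.27 (SE; adjusted p = 0.980, limma).

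The minus-strand gene mt-Nd6 had 5923, 5605, 4687 and 5741 normalized counts in the knockout. It had 8162, 3984, 4381 and 11774 in wild type, the same order of wild-type libraries as for mt-Nd1, whose gene lies on the other strand. The library kit does not mark the strand, so reads in the mt-Nd6 row cannot be assigned to the minus strand. Its log2 difference was -0.23 ± 0.30 (SE; adjusted p = 0.979, limma). Of the remaining subunits of complex I, mt-Nd4 had 40826 ± 3311 normalized counts in the knockout and 53468 ± 27084 in wild type, and mt-Nd2 had 18432 ± 565 in the knockout and 22487 ± 13443 in wild type. The short genes had fewer counts: mt-Nd4l had 2718 ± 271 in the knockout and 3402 ± 1510.2 in wild type, and mt-Nd3 had 2287 ± 625 in the knockout and 2835 ± 2077 in wild type (SD, n = 4 each). In each of these 4 genes the knockout range lay inside the wild-type range, and the log2 differences were between -0.26 for mt-Nd4 and -0.06 for mt-Nd3.

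Cytochrome b, encoded by mt-Cytb, is the catalytic subunit of complex III that oxidizes ubiquinol. Knockout replicates 1 to 4 held 146307, 144951, 133947 and 149200 normalized counts of mt-Cytb. Wild-type replicates 1 to 4 held 203762, 105430, 114434 and 275567. The SD was 6676 in the knockout and 80517 in wild type, around means of 143601 and 174798. The log2 difference was -0.17 ± 0.27 (SE; adjusted p = 0.987, limma).

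Complex IV, cytochrome c oxidase, passes the electrons to oxygen, and its catalytic core is made of the products of mt-Co1, mt-Co2 and mt-Co3. The core subunit gene mt-Co1, which encodes the subunit that holds the oxygen-binding centre, had 106278, 111608, 103839 and 119612 normalized counts in the knockout. Its wild-type libraries had 147433, 82948, 93596 and 246626. The groups overlapped, with wild-type replicates 2 and 3 below every knockout library, and the log2 difference was -0.23 ± 0.29 (SE; adjusted p = 0.976, limma). The copper-binding subunit gene mt-Co2 had 63781.5 ± 8243 normalized counts in the knockout and 77621 ± 47702 in wild type, and mt-Co3 had 47079 ± 5739 in the knockout and 58837 ± 34390.0 in wild type (SD, n = 4 each). Knockout replicate 4 was the highest knockout library for mt-Co1, mt-Co2 and mt-Co3.

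Complex V, ATP synthase, has 2 mitochondrially encoded subunits of its membrane part, from the overlapping genes mt-Atp8 and mt-Atp6. The proton channel subunit gene mt-Atp6 had 35942, 31733, 33862 and 38190.4 normalized counts in the knockout. In wild type it had 47192, 21819, 24718.5 and 70013. Again the knockout values were enclosed by those of wild type, and the log2 difference was -0.07 ± 0.32 (SE; adjusted p = 0.997, limma). The small subunit gene mt-Atp8 had 12061.5 ± 1046 normalized counts in the knockout and 15329 ± 8565 in wild type (SD, n = 4 each). Its log2 difference was -0.17 ± 0.34 (SE).

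**Figure D2:**
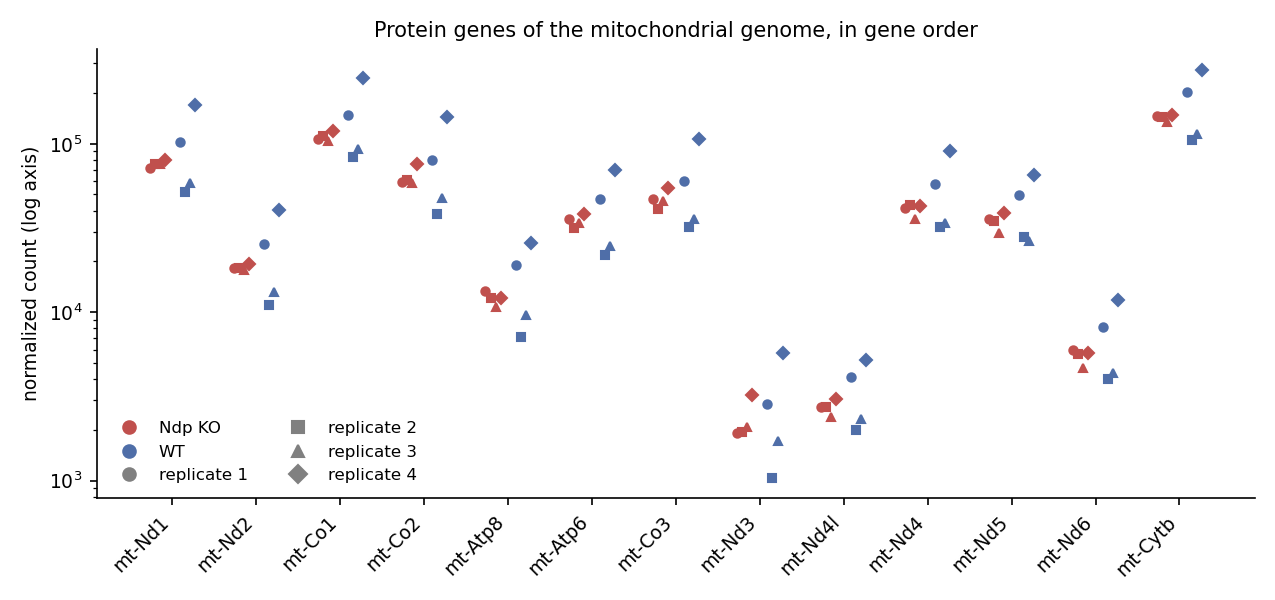
Normalized counts, on a log axis, of the 13 mitochondrial protein genes in every library, in the order of the genes on the genome, with the Ndp knockout left of wild type for each gene and symbols giving the replicate. The knockout libraries form a tight group within the wild-type range for each gene, and wild-type replicate 4 is the highest of the 8 libraries.

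Wild-type replicate 4 was the highest of the 8 libraries for 13 of 13 protein genes, 2 of 2 rRNA genes and 14 of 18 tRNA genes, against 21.2% of all genes tested. Wild-type replicate 2 was lowest for 12 of the 13 protein genes and for both rRNA genes. The whole knockout range lay inside the wild-type range for 13 of 13 protein genes, 2 of 2 rRNA genes and 8 of 18 tRNA genes, against 38% of all genes tested. Of the 18 tRNA genes 7 were not tested, so the tRNA counts and the shares of all genes tested rest on unlike sets. The protein genes had a coefficient of variation of 3.07% to 27.3% in the knockout and 43.6% to 73.3% in wild type. On the log2 scale their median SD was 0.13 in the knockout and 0.79 in wild type, while that of all tested genes was 0.28 in the knockout and 0.44 in wild type. Replicate 4 exceeded the mean log2 level of the other wild-type libraries by a median of 1.24 over the 13 protein genes and by 0.01 over all tested genes.

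Marker genes of cell types were set beside the spread of the wild-type libraries. In wild-type replicate 4 the 12 hair cell markers summed to 363538 normalized counts, 0.947 times the mean of the other wild-type libraries. There 1 of 12 was highest, against 21.2% of all genes tested. The hair cell sum was 383548 to 457645 in knockout libraries and 363538 to 404881 in wild type. The 11 supporting cell markers summed to 399526 in wild-type replicate 4, 1.25 times the mean of the others, and 3 of 11 were highest there, among them S100a1, a calcium-binding protein gene, with 69580.4. Their sum ranged over 260607 to 336207 in the knockout and 199234 to 399526 in wild type, lowest in wild-type replicate 3. Wild-type replicate 2, where mitochondrial transcripts were lowest, held 397116, close to replicate 4, so this sum did not rank the wild-type libraries as the mitochondrial genes did. None of the 10 macrophage, 8 mesenchymal, 5 endothelial, 7 neuronal and glial or 5 red blood cell markers measured was highest in wild-type replicate 4. In the knockout these lists summed to 3668 to 5811 normalized counts for macrophage, 17472.5 to 26357 for mesenchymal, 102 to 164 for endothelial, 25753.5 to 31798 for neuronal and glial and 1.96 to 66.8 for red blood cell markers. In wild type the sums were 2097 to 4852, 14935.5 to 21839.5, 24.6 to 99.3, 23461 to 31851 and 2.33 to 84.0, in the same order of lists. The macrophage marker Ptprc and the red blood cell markers Slc4a1, Alas2 and Hbb-bs were at 0 in wild-type replicate 4. The part of cell makeup and of depth in the spread of the mitochondrial genes was not tested.

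The gene mt-Rnr2 encodes the large ribosomal RNA (16S) of the mitochondrial ribosome and mt-Rnr1 the small one (12S). In knockout replicates 1 to 4, mt-Rnr2 had 54259, 55782, 54996 and 65356 normalized counts. Wild-type replicates 1 to 4 had 87360.2, 39737.5, 56259 and 132882. Replicates 1 and 4 of wild type were above every knockout library, replicate 2 was below all of them and replicate 3 fell among them. The log2 difference of mt-Rnr2 was -0.31 ± 0.31 (SE; adjusted p = 0.959, limma), and it was -0.015 without wild-type replicate 4 and -0.60 without replicate 2. The small rRNA gene mt-Rnr1 had 6785, 8025, 8037 and 10265 normalized counts in the knockout. Its wild-type libraries had 14149, 4674, 7536 and 21796, and the log2 difference was -0.32 ± 0.39 (SE; adjusted p = 0.975, limma).

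Transfer RNAs carry amino acids to the mitochondrial ribosome, and their rows held few reads. Of 18 tRNA genes, 11 passed the minimum of 10 normalized counts in at least 4 libraries. The row with the highest level was mt-Ts1, a serine tRNA gene of the minus strand, with 933, 1089, 913 and 1143 normalized counts in the knockout. Wild type had 1580 (replicate 1), 549.5, 986 and 2839, so that the knockout range again lay inside that of wild type. The log2 difference of mt-Ts1 was -0.30 ± 0.40 (SE; adjusted p = 0.979, limma). Its gene (chrMT:6870-6938) abuts the end of mt-Co1 on the other strand and shares 3 bases with it, which are marked by capitals, and without strand its reads cannot be told apart from reads that run past the end of mt-Co1.
mt-Ts1: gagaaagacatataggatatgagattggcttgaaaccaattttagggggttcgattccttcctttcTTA

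Next in level was mt-Tq, the glutamine tRNA gene, with 138 ± 33.3 normalized counts in the knockout and 156 ± 87.8 in wild type, and it was the 1 tested tRNA gene whose highest value was not in wild-type replicate 4 but in replicate 1. The leucine tRNA gene mt-Tl1, which follows mt-Rnr2 on the plus strand, had 64.3, 50.0, 50.5 and 80.3 normalized counts in the knockout. In wild type it had 82.4, 83.1, 53.8 and 186, and its log2 difference of -0.59 ± 0.43 (SE) came with the lowest adjusted p of all mitochondrial genes (0.939, limma). The groups overlapped through wild-type replicate 3, which lay below knockout replicates 1 and 4, and without wild-type replicate 4 the log2 difference was -0.25. The largest positive value was that of the alanine tRNA gene mt-Ta, 0.52 ± 0.68 (SE), at 27.1 ± 11.2 normalized counts in the knockout and 22.9 ± 20.9 in wild type (SD, n = 4 each). The log2 difference of mt-Ta ranged over 0.079 to 1.04 when 1 library was left out. The proline and glutamate tRNA genes mt-Tp and mt-Te had 60.7 ± 17.5 and 50.8 ± 11.7 normalized counts in the knockout, against 89.5 ± 58.6 and 62.2 ± 31.5 in wild type. The other tested tRNA genes, mt-Tm, mt-Tc, mt-Ty, mt-Tn and mt-Ti, averaged 11.8 to 32.4 normalized counts in the knockout and 10.6 to 50.6 in wild type.

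Below the minimum were 7 tRNA genes, mt-Tf, mt-Tv, mt-Tw, mt-Td, mt-Tg, mt-Tr and mt-Tt. Their single values ran from 0 to 17.4 normalized counts, where 3 reads in a library are worth 2.34 to 3.49, so differences between the genotypes were not detectable at this depth for most of them. The tryptophan tRNA gene mt-Tw had 5.08 ± 1.16 normalized counts in the knockout and 9.41 ± 3.17 in wild type (SD, n = 4 each), and the ranges of its genotypes overlapped. The aspartate tRNA gene mt-Td had 3.104 ± 1.79 in the knockout and 6.72 ± 7.31 in wild type, where replicate 4 had 17.4.

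Levels were compared between genes as normalized counts per kilobase of gene, averaged over the 8 libraries. The protein genes spanned 7359 (mt-Nd3) to 139161 (mt-Cytb) per kilobase, with a median of 55703. The large rRNA gene mt-Rnr2 stood at 43191.5 and the small rRNA gene mt-Rnr1 at 10637 per kilobase, below the median of the protein genes. Transfer RNA genes other than mt-Ts1 stood at 32.9 to 2066 per kilobase, and mt-Ts1 at 18174. The 8 tRNA genes of the minus strand had a median of 630.0 per kilobase (range 223 to 18174) and the 10 of the plus strand a median of 79.2 (range 32.9 to 1084). The libraries do not mark the strand, so the reads in these rows cannot be assigned to either strand. With genes of 66 to 75 bases and cDNA started at adenine stretches, these values need not reflect levels of mature tRNA. As rRNA tails are short, the rRNA rows likewise need not show how rRNA levels rank against messengers. The order of the protein genes differed little between genotypes: mt-Cytb led with 125526 ± 5835 per kilobase in the knockout and 152796 ± 70382 in wild type, followed by mt-Co2 with 93248 ± 12052 in the knockout and 113481 ± 69739.5 in wild type (SD, n = 4 each). In the knockout mt-Co2 exceeded mt-Nd1 (79282.5 ± 3709) by little more than its SD, and in wild type the SDs of these genes overlapped. Reads shared with nuclear copies, described further on, alter this order.

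**Figure D3:**
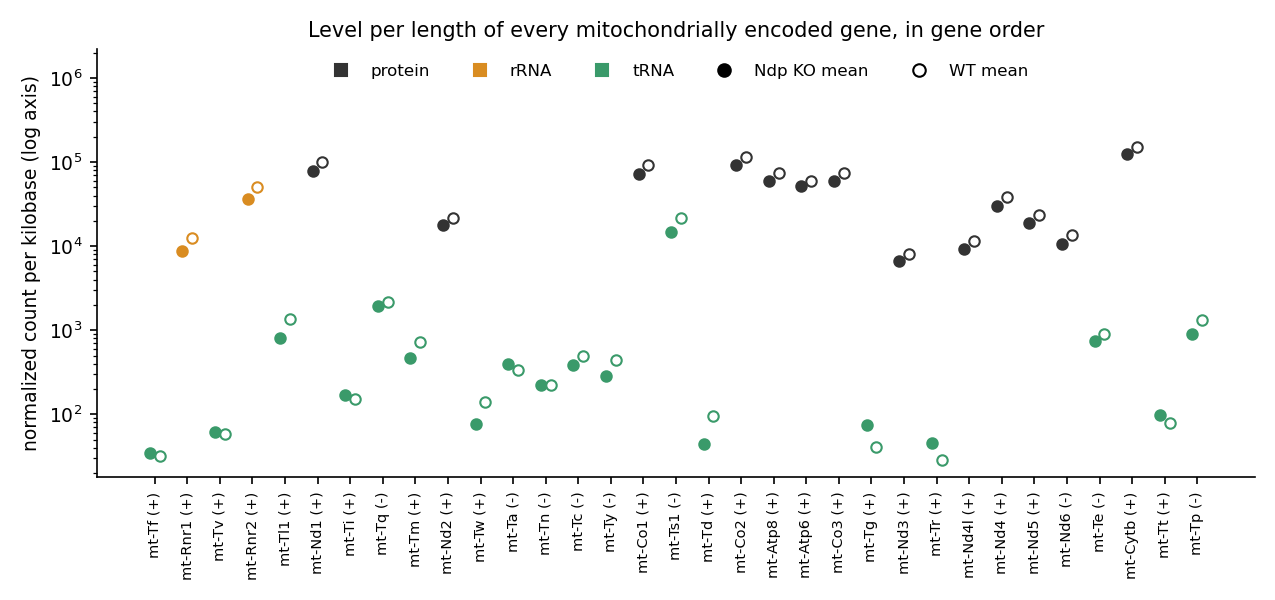
Mean normalized count per kilobase, on a log axis, of all 33 mitochondrially encoded genes in genome order, with the strand in brackets. Filled circles are the Ndp knockout and open circles wild type, each the mean of 4 libraries. Protein and rRNA genes and mt-Ts1 form an upper band, and the other tRNA genes lie below it, at 32.9 to 2066 per kilobase over the 8 libraries.

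The comparison between genotypes asked whether mitochondrial transcripts differ in knockout hair cells. Limma called 0 of the 26 tested mitochondrial genes (13 protein, 2 rRNA and 11 tRNA genes), where it called 0.00549% of all genes tested, a single gene of 18203. The quasi-likelihood test of edgeR and DESeq2 also called 0 mitochondrial genes, where edgeR called 0% of all genes and DESeq2 0.136% (0.0917% higher and 0.0439% lower in the knockout). Ndp, the targeted gene, was not called either (adjusted p = 0.895 in limma, 0.996 in edgeR and 0.129 in DESeq2). A lack of calls therefore does not show that levels were equal. At an unadjusted p under 0.05 each of the 3 tools listed 0 mitochondrial genes, where limma listed 5.57% of all genes, edgeR 4.55% and DESeq2 6.09%. Log2 differences, knockout minus wild type, were negative for 13 of 13 protein genes, 2 of 2 rRNA genes and 8 of 11 tRNA genes, against 47.5% of all genes tested. Their median was -0.17 for the protein genes, with a range of -0.26 to -0.06 and SEs of 0.27 to 0.43, while that of all tested genes was 0.02. On the reads the median of the protein genes was -0.33 in edgeR and -0.32 in DESeq2. The adjusted p-values of the protein genes were 0.968 to 0.997 in limma. The 95% intervals of the protein genes reached from -1.01 at the lowest to 0.90 at the highest, both for mt-Nd3.

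The signs of the protein genes depended on single libraries. Without wild-type replicate 4, 13 of 13 protein genes had a positive log2 difference, with a median of 0.14 (0.02 to 0.38), while 1 of 2 rRNA genes and 4 of 11 tRNA genes stayed negative. Without wild-type replicate 1, 9 of 13 protein genes were negative, with a median of -0.08. Leaving out knockout replicate 1 or 2 left 12 of 13 negative. Without wild-type replicate 2 the median was -0.41, and the lowest unadjusted p among mitochondrial genes was then 0.0366 (adjusted p = 0.526, limma). By the dates in the sample titles, a single date is common to both genotypes, that of knockout replicate 2 and wild-type replicate 2. Within that pair 13 of 13 protein genes, 2 of 2 rRNA genes and 14 of 18 tRNA genes were higher in the knockout library, by a median ratio of 1.41 for the protein genes. In the other 6 libraries the median log2 difference of the protein genes was -0.38. The direction within the date was opposite to that of the means, but the pair is 1 library against 1. Wild-type replicate 2 was the lowest of all libraries for 12 of 13 protein genes and 2 of 2 rRNA genes. Any knockout library would have exceeded it for these genes, so the pair cannot show a direction of genotype. The share over all genes tested was not determined for this pair, and no other date holds both genotypes.

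**Figure D4:**
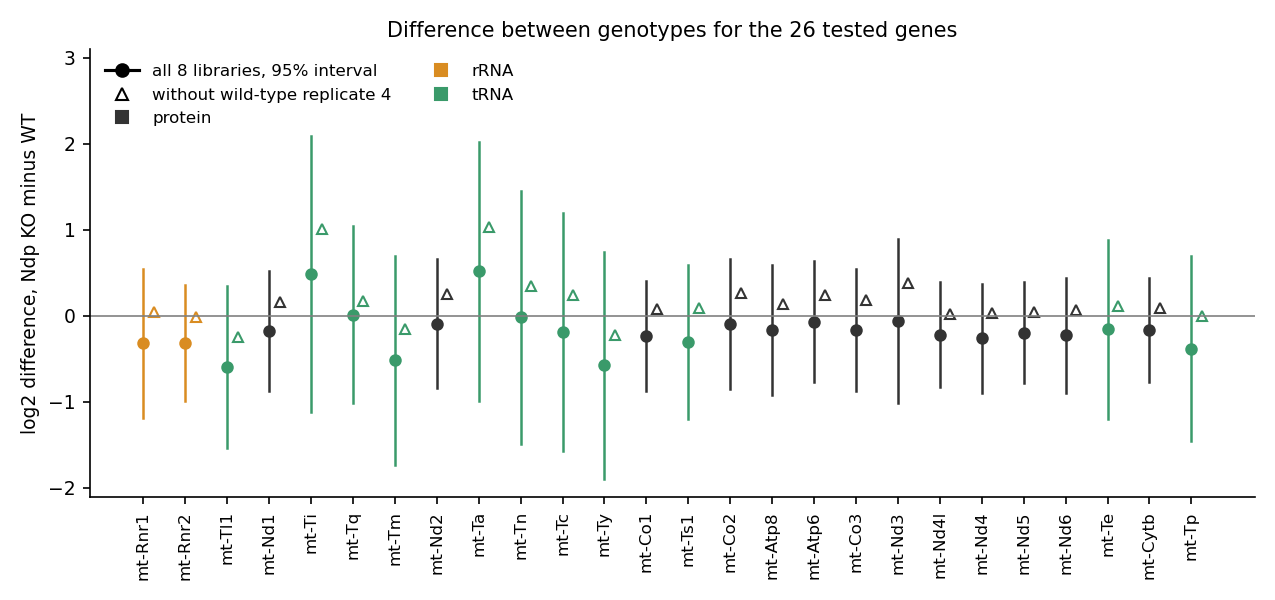
Log2 difference, Ndp knockout minus wild type, of the 26 tested mitochondrial genes in genome order, with circles for all 8 libraries, bars for the 95% interval of limma and open triangles for the fit without wild-type replicate 4. The bars all cross 0, and the triangles of the 13 protein genes all lie above 0.

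In wild type, the makeup of the mitochondrial messengers by complex varied far less than their total, 737718 ± 387544 normalized counts. The knockout total, 592051 ± 36544, itself varied little (SD, n = 4 each). Of the normalized counts of the 13 protein genes, complex I genes took 30.5% ± 0.479 in the knockout and 30.8% ± 0.463 in wild type. The complex III gene mt-Cytb took 24.3% ± 0.792 in the knockout and 24.2% ± 1.56 in wild type, complex IV genes took 37.3% ± 1.22 in the knockout and 37.5% ± 1.70 in wild type, and complex V genes took 7.94% ± 0.371 in the knockout and 7.51% ± 0.532 in wild type (SD, n = 4 each). Wild-type replicate 4, the library with the highest total, had the lowest share of mt-Cytb, 21.9%, and the highest share of complex IV genes, 39.6%. Knockout replicate 4 had the lowest share of mt-Cytb (23.2%) and the highest share of complex IV genes (39.0%) in its own group. These shares leave out reads of nuclear copies, described further on. With the copies in the table added, complex V took 15.8% ± 0.712 in the knockout and 15.3% ± 0.778 in wild type, complex IV took 46.8% ± 1.80 in the knockout and 47.1% ± 2.35 in wild type, and wild-type replicate 4 still had the lowest share of mt-Cytb and the highest of complex IV. Knockout replicate 4 and wild-type replicate 4 also carry the latest dates of their genotypes in the titles.

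The following 3 ratios within a library were tested, because a ratio does not depend on the size factor. The ratio of the minus-strand gene mt-Nd6 to its plus-strand neighbour mt-Cytb was 0.0382 ± 0.00229 in the knockout and 0.0397 ± 0.00223 in wild type (SD, n = 4 each; log2 difference -0.06; exact permutation p = 0.457, adjusted over 3 ratios 0.686). Knockout replicates 1 to 4 stood at 0.0405, 0.0387, 0.0350 and 0.0385, and wild-type replicates 1 to 4 at 0.0401, 0.0378, 0.0383 and 0.0427. Since the kit does not mark the strand, this ratio of rows need not be a ratio of minus-strand to plus-strand transcripts. The ratio of mt-Rnr2 to its downstream neighbour mt-Nd1 was 0.758 ± 0.0397 in the knockout and 0.839 ± 0.0897 in wild type (SD, n = 4 each; log2 difference -0.14; exact permutation p = 0.143, adjusted 0.429). With short tails on rRNA and cDNA started at adenine stretches, this ratio of rows need not be a ratio of rRNA to messenger levels. The ratio was highest in wild-type replicate 3, at 0.960, and without that library the log2 difference was -0.075. That of mt-Nd6 to mt-Cytb was -0.017 without knockout replicate 3 and -0.022 without wild-type replicate 4. The 2 rRNA genes stood at a ratio of mt-Rnr2 to mt-Rnr1 of 7.04 ± 0.687 in the knockout and 7.06 ± 1.15 in wild type (SD, n = 4 each; exact permutation p = 1, adjusted 1). All tests were two-sided, and the smallest p that 4 against 4 libraries can give is 0.0286.

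The chromosome 1 copies held many reads in the table. Gm28437 had 114370, 132462, 119491 and 160290 normalized counts in knockout replicates 1 to 4. Wild-type replicates 1 to 4 held 158406, 85430.4, 104494 and 320938, and in each library the copy exceeded mt-Co3 itself, by 2.44 to 3.23 times. Likewise Gm10925 had 89879 ± 4189 normalized counts in the knockout and 110599 ± 60263 in wild type (SD, n = 4 each), 2.43 to 2.87 times those of mt-Atp6. Its value in wild-type replicate 4, 189804, was again the highest of the 8. Gm29216 covers only the last part of mt-Co1 and had 53460 ± 3874 normalized counts in the knockout and 70642 ± 39976 in wild type (SD, n = 4 each), 0.432 to 0.521 times those of mt-Co1.

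The copies Gm28661 and Gm28438 were unevenly filled. The first, identical to mt-Co2 but for its last bases, was at 0 in knockout replicate 4 and in wild-type replicates 1 and 2, and at 296, 501 and 403 normalized counts in knockout replicates 1 to 3. In wild-type replicates 3 and 4 it held 144 and 1009. Gm28438, the copy of mt-Nd3, was at 0 in knockout replicate 3 and in wild-type replicate 2, and at 153 normalized counts or fewer elsewhere. Of the normalized counts of a member and its copy, summed over all libraries, the copy held 73.8% for mt-Co3, 72.5% for mt-Atp6, 32.9% for mt-Co1, 2.71% for mt-Nd3 and 0.414% for mt-Co2. The older copies that differ at many bases were low: Gm13340, the full-length copy of mt-Co1, had 19.5 ± 4.77 normalized counts in the knockout and 33.4 ± 15.998 in wild type, and Gm13341, a copy of mt-Co2, had 11.01 ± 1.61 in the knockout and 13.8 ± 6.94 in wild type (SD, n = 4 each). The nuclear models Gm10288 (172 ± 40.3 normalized counts in the knockout and 262 ± 139 in wild type) and Gm10221 (11.9 ± 11.2 in the knockout and 13.4 ± 16.5 in wild type) had been listed as candidates and matched no mitochondrial gene over at least 100 bases at 90% identity. The diverged copies Gm43743, Gm11512, Gm11410 and Gm13339 had 11.9 normalized counts or fewer in each library. Identical copies of mt-Nd4 (Gm28439) and mt-Nd4l (Gm10222) were not analysed here.

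Reads from within an identical stretch cannot be placed by their sequence, so the rows of mt-Co3, mt-Atp6, mt-Co1, mt-Co2, mt-Nd3, mt-Nd4 and mt-Nd4l are uncertain as levels. With the copies added, mt-Co3 had 178732 ± 24749 normalized counts in the knockout and 226154 ± 141269 in wild type, and mt-Atp6 had 124811 ± 5939 in the knockout and 151535 ± 82711 in wild type (SD, n = 4 each). Per kilobase and over all libraries, mt-Co3 then stood at 258218 and mt-Atp6 at 202897, above the 139161 of mt-Cytb. The log2 difference was -0.16 ± 0.34 for mt-Co3 and -0.12 ± 0.31 for mt-Atp6 with the copies (SE; adjusted p = 0.990 and 0.992, limma), so the call did not change. Mitochondrial genes and copies together took 2.29%, 2.33%, 2.16% and 2.62% of reads in the knockout. The wild-type libraries stood at 3.20%, 1.60%, 2.001% and 5.04%, ranked as without the copies.

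**Figure D5:**
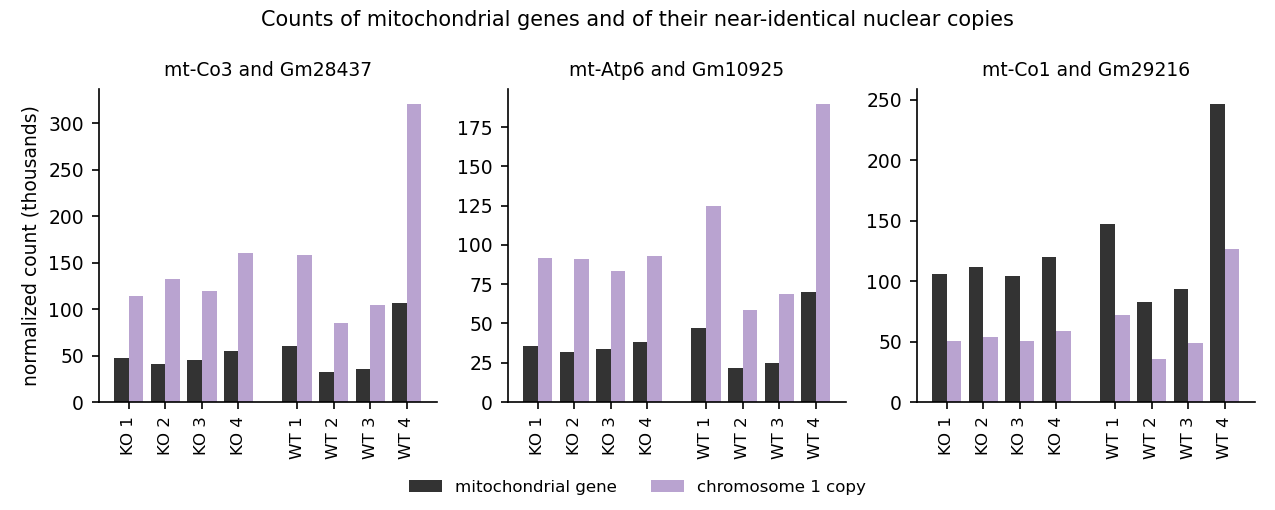
Normalized counts of mt-Co3, mt-Atp6 and mt-Co1 (dark bars) and of their chromosome 1 copies (light bars) in Ndp knockout libraries (left) and wild-type libraries (right). The copies of mt-Co3 and mt-Atp6 exceed the mitochondrial gene in each library, and the copy of mt-Co1 holds 0.432 to 0.521 times its counts.

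Nuclear genes of the same complexes were compared next, as a list of subunits of complexes I, III, IV and V. Limma called 0 of the 42 tested, 42 had a positive log2 difference and 0 a negative one, against 47.5% negative among all genes tested, and their median was 0.12. The signs rested on the low wild-type libraries: 18 of 42 were positive without wild-type replicate 2 (median -0.03), 19 of 42 without replicate 3 (median -0.01), and 42 of 42 without replicate 4 (median 0.34). In edgeR 27 of 42 were positive (median 0.02). The summed level was 684080 ± 22060 normalized counts in the knockout and 652305 ± 195636 in wild type (SD, n = 4 each). Knockout replicates 1 to 4 held 678470, 675478, 716221 and 666152, and wild-type replicates 1 to 4 held 686181, 508385, 498875 and 915779. As for the mitochondrial messengers, the knockout libraries lay inside the wild-type range, with wild-type replicate 4 highest and replicates 2 and 3 lowest. Of the 43 in the table, 42 of them tested, 36 were highest in wild-type replicate 4, against 21.2% of all genes tested. The gene with the smallest p described here did not share that order. Cyc1, which encodes cytochrome c1 of complex III, had 16068 to 18682 normalized counts in the knockout and 13156 to 15705 in wild type, where it was lowest in replicate 4. Ndufs1, a complex I subunit gene, had 11386 ± 381 normalized counts in the knockout and 9945 ± 1843 in wild type, and Atp5o, a stalk subunit gene of ATP synthase, had 15621 ± 1214 in the knockout and 13449.5 ± 3984 in wild type (SD, n = 4 each). Cyc1 did not overlap between genotypes, as held for 1.46% of all genes tested in this direction, and it was picked for its small p (log2 difference 0.27 ± 0.11, SE; adjusted p = 0.895, limma).

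Among genes that maintain and transcribe mitochondrial DNA, limma called 0 of 19, with 9 positive and 10 negative log2 differences and a median of -0.03, and their sum ranged over 22456 to 23524 normalized counts in the knockout and 21356 to 24488 in wild type. Polg2, the accessory subunit gene of the mitochondrial DNA polymerase, had 488 ± 109 normalized counts in the knockout and 658 ± 96.1 in wild type (SD, n = 4 each; log2 difference -0.45 ± 0.22, SE; adjusted p = 0.903, limma). Tfb1m, which encodes a methyltransferase of the small mitochondrial rRNA, had 466 ± 16.4 in the knockout and 408 ± 117 in wild type. The paralogs Mterf1a and Mterf1b, of the transcription termination factor family, had 89.2 ± 33.7 and 48.5 ± 18.1 normalized counts in the knockout, against 125 ± 50.6 and 27.0 ± 13.7 in wild type. Being close copies they may share reads, and their log2 differences had opposite signs (-0.48 ± 0.39 and 0.94 ± 0.62, SE).

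Of 32 genes that process, modify or degrade mitochondrial RNA, limma called 0, with 24 positive and 8 negative log2 differences, a median of 0.08 and 2 genes at an unadjusted p under 0.05, a count near the 5.57% of all genes tested. The first was Grsf1, which encodes an RNA-binding protein of mitochondrial RNA granules, with 5331, 5043, 5209 and 4957 normalized counts in the knockout. In wild type it had 4178, 4568, 4121 and 3608, so the groups did not overlap, as held for 1.46% of all genes tested in this direction, and its log2 difference was 0.32 ± 0.12 (SE; adjusted p = 0.895, limma). The second was Nsun4, a methyltransferase gene of the small mitochondrial rRNA, with 701 ± 186 normalized counts in the knockout and 972 ± 114 in wild type (SD, n = 4 each; log2 difference -0.51 ± 0.23, SE; adjusted p = 0.895, limma). Lrpprc, whose product stabilizes mitochondrial messengers, had 7984 ± 489 in the knockout and 6839 ± 1554 in wild type, lowest in wild-type replicate 4 at 4811. Mettl15, an rRNA methyltransferase gene, had 648 ± 80.3 in the knockout and 534 ± 122 in wild type (SD, n = 4 each).

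Translation factors and tRNA ligases of mitochondria also gave 0 calls in limma, of 31 tested. There were 17 positive and 14 negative log2 differences, with a median of 0.02. At an unadjusted p under 0.05 limma listed 3 of 31, where it listed 5.57% of all genes tested. The sum of the 31 genes ranged over 145570 to 160153 normalized counts in the knockout and 127914 to 293506 in wild type. In wild-type replicate 4 it was 1.77 times the mean of the other wild-type libraries, and 13 of 31 were highest there, against 21.2% of all genes tested. The isoleucine tRNA ligase gene Iars2 had 3908 to 4196 normalized counts in the knockout and 2261 to 3815 in wild type. Ears2, the glutamate tRNA ligase gene, had 605 to 722 in the knockout and 794 to 887 in wild type. The log2 differences were 0.38 ± 0.17 for Iars2 and -0.35 ± 0.15 for Ears2 (SE; adjusted p = 0.895 for each, limma). For both, the genotypes did not overlap, which held for 1.46% of all genes tested in the direction of Iars2 and 1.58% in that of Ears2. Qrsl1, which encodes a subunit of the glutamyl-tRNA amidotransferase, had 554 ± 52.1 normalized counts in the knockout and 421 ± 79.0 in wild type (SD, n = 4 each).

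Regulators of mitochondrial biogenesis gave 0 calls in limma among the 8 tested, with 5 positive and 3 negative log2 differences. The transcription factor gene Gabpa had 1263 ± 198 normalized counts in the knockout and 974 ± 367 in wild type, and Nrf1, a factor that activates genes of the respiratory chain, had 1426 ± 293 in the knockout and 1736 ± 496 in wild type. The coactivator gene Ppargc1a had 27.4, 112, 178 and 37.4 normalized counts in knockout replicates 1 to 4. Its wild-type libraries had 138, 82.2, 127 and 119.8, and the groups overlapped. Pprc1, of the same coactivator family, had 598 ± 52.6 in the knockout and 780 ± 230.3 in wild type (SD, n = 4 each). In wild-type replicate 4, where mitochondrial transcripts were highest, 0 of the 9 regulator genes in the table had their highest level, against 21.2% of all genes tested. Of these 9 genes 8 were tested, and Esrrb was at 0 in that library, so the count and the share rest on unlike sets. A list of 9 genes is too short to set 0 apart from that share.

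In the authors' deposited table the shrunken log2 fold change, knockout over wild type, was negative for 26 of the 33 mitochondrial genes. The lowest adjusted p there was 0.991, and 0 genes were under 0.05. The values of the authors' deposited table for mt-Cytb, mt-Co1 and mt-Rnr2 were -0.20, -0.25 and -0.30.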

How the data were processed

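RNA of sorted cochlear hair cells was measured in 4 Ndp knockout and 4 wild-type libraries, grouped by the genotype labels. Hair cells were dissociated with TrypLE, sorted for GFP, and made into libraries with SMART-Seq v4 and Nextera XT, per the labels' protocols. The deposited table holds signal values, the authors' gene counts after scaling each library by its own size factor. This follows from the values, since 100% of 202744 values lay within 1e-06 of a whole multiple of 1 step per library. These whole multiples are called reads, although whole numbers do not show whether they were counted or rounded estimates. Bcl2fastq 2.20, Salmon 0.14.2, DESeq2 1.26.0 and mm10 are named without roles in the submitters' processing notes, so the sharing of reads of identical sequence is not stated in the sources used here. The deposited table also gives the authors' log2 fold changes and the authors' p-values of a comparison, and the authors' gene length in bases, per the file headers.

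Since values were already normalized, differences were tested with limma 3.58.1 under R 4.3.3 (trend, empirical Bayes, two-sided) on log2(normalized count + 1) over genes with at least 10 normalized counts in at least 4 libraries, with Benjamini-Hochberg adjustment over all 18203 genes tested and a threshold of 0.05. On this scale the log2 difference of a low gene can be understated through the added 1 or enlarged through libraries at or near 0. That of Gm28661, with libraries at 0, was 2.17 in limma and 0.05 in edgeR, and that of mt-Ta was 0.52 and 0.24. EdgeR 4.0.16 (quasi-likelihood) and DESeq2 1.42.0 on the reads were alternatives. The 3 ratios were tested by exact permutation over libraries with scipy 1.17.1. Nuclear copies were found with blastn 2.17.0 against GENCODE M21 transcripts, at 90% identity or more over at least 100 bases. This search and the addition of copies were chosen after the data were seen. The alternatives tried were other pseudocounts, filters, scalings and tools, and leaving out libraries. The limma and edgeR steps were tested on simulated data.

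The members and the gene lists were chosen with earlier results of these data known. The rule for named genes takes every mitochondrial gene, the measured nuclear copies, Ndp, the 4 tested genes of each nuclear list with the smallest unadjusted limma p and the 2 most abundant markers of each cell type, of which those of hair and supporting cells are given by value and those of other cell types within the sums of their lists. Of the genes this rule takes, 2 are not reported here. Diverged copies were added once their values were known. The libraries have no molecular identifiers, so the floor of 3 reads per library accounts for counting error and not for amplification. The 8 libraries held 35077950 to 48329827 reads.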

Additional observations from a re-analysis of the deposited data

Results flagged for a closer look

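Of 106 groups of 4 libraries checked, 7 held a library that stood apart from the other 3 by Dixon's criterion, where chance gives about 1 in 20. Knockout replicate 4 stood above the other knockout libraries for mt-Rnr2 (65355.8 normalized counts, the others 54259 to 55782), mt-Co2 (76058.5, the others 58544 to 60943), mt-Nd3 (3217.09, the others 1906 to 2091) and the percent of reads in the 2 rRNA genes (0.191858, the others 0.154 to 0.160). Wild-type replicate 4 stood above the other wild-type libraries for the tRNA genes mt-Tn (31.3918 normalized counts, the others 10.6 to 10.95) and mt-Ty (55.8076, the others 17.3 to 23.4). Knockout replicate 3 stood below the others in the percent of protein gene counts that mt-Nd4l took (0.426932, the others 0.467 to 0.472).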

How the results depend on the processing

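No paired analysis was possible because replicate numbers follow accession order, and only 1 title date occurs in both genotypes. Under every setting run, 0 mitochondrial genes and 0 members of the nuclear lists were called, and of the tests of single genes 909 kept their direction and their side of the threshold and 47 turned their sign, all without a call. The count called over all genes, 1 in the main test, was 0 with a pseudocount of 0.1, with a minimum of 5 CPM in 4 libraries, in edgeR and without the shared date, 34 in DESeq2, and 0 to 2 when 1 library was left out. The median log2 difference of the protein genes was -0.33 in edgeR and -0.32 in DESeq2. The percent difference of mitochondrial reads was -0.739 to 0.0346 when 1 library was left out, -0.730 without the shared date, -0.363 for protein genes only and -0.610 with the copies added.

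Signs of low genes turned as follows, on the log2 scale: mt-Tn 0.00042 with a pseudocount of 5, mt-Tq -0.18 in edgeR, -0.18 in DESeq2 and -0.39 without the shared date, Gm10221 -0.16 in edgeR and -0.16 in DESeq2, and, without the shared date, Gm28661 -0.10 and Gm28438 -2.32, both with libraries at 0. The linear ratio of mt-Rnr2 to mt-Rnr1 differed by -0.020, and its log2 ratio by -0.061 to 0.099 when 1 library was left out. With 1 library left out, the log2 differences ranged over -0.41 to 0.16 for mt-Nd1, -0.37 to 0.25 for mt-Nd2, -0.44 to 0.38 for mt-Nd3, -0.44 to 0.020 for mt-Nd4l, -0.46 to 0.034 for mt-Nd4, -0.38 to 0.047 for mt-Nd5, -0.46 to 0.066 for mt-Nd6 and -0.37 to 0.088 for mt-Cytb. They ranged over -0.45 to 0.075 for mt-Co1, -0.37 to 0.26 for mt-Co2, -0.39 to 0.19 for mt-Co3, -0.47 to 0.14 for mt-Atp8, -0.32 to 0.24 for mt-Atp6, -0.69 to 0.046 for mt-Rnr1, -0.69 to 0.10 for mt-Ts1, -0.56 to 0.24 for mt-Tc, -0.24 to 0.39 for mt-Tn, -0.44 to 0.33 for mt-Tq and -0.50 to 0.11 for mt-Te. The copies ranged over -0.51 to 0.093 for Gm29216, -0.42 to 0.22 for Gm28437, -0.39 to 0.17 for Gm10925, -1.52 to 1.71 for Gm28438 and -0.22 to 1.55 for Gm10221. For the protein genes the highest value was the one without wild-type replicate 4. The log2 ratio of mt-Rnr2 to mt-Nd1 ranged over -0.18 to -0.075. The cause of these turns was not tested.

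The tRNA genes below the minimum lie near the floor of 3 reads, and the tested tRNA gene with the highest level, mt-Ts1, had a CV of 11.2% in the knockout and 66.8% in wild type. The tables do not show how identical reads were shared between a gene and its copy.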
